A study of Mus musculus with 4 samples.

Results

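Neutrophils that carried the transcript of Csf3 were examined. Csf3 (ENSMUSG00000038067, chr11:98701263-98703629 on the plus strand of GRCm38) encodes granulocyte colony-stimulating factor. A cell was a member when it held at least 2 Csf3 UMIs (unique molecular identifiers, each counting 1 captured transcript), at least 1 UMI summed over the neutrophil receptor genes Csf3r, Cxcr2 and Il1r2, and no UMI of Siglecf, C1qa, C1qb, C1qc, Cd3e or Cd79a. C1qa, C1qb and C1qc mark macrophages, Cd3e T cells and Cd79a B cells. Siglecf is a gene of eosinophils, but 1103 cells of the library Vehicle-OVA held it together with neutrophil receptor UMIs. Of 72320 cells that passed quality filters, 971 were members, and 917 of these (94.4%) were in the library Vehicle-OVA. Because the members were chosen by their counts, every value below that compares them with other cells is a description, and none was tested.

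Leukocytes (CD45+ cells) of the nasal mucosa of C57BL/6 mice aged 8 weeks had been profiled in 4 libraries by single-cell RNA-seq. Mice had received vehicle (library Vehicle), vehicle and the allergen ovalbumin, OVA (Vehicle-OVA), the antiviral drug ribavirin (Ribavirin) or ribavirin and ovalbumin (Ribavirin-OVA). In the allergic rhinitis model mice are sensitised by intraperitoneal OVA with alum and then challenged with OVA through the nose. No genotype other than the wild-type strain was named, the number of mice behind a library was not stated, and with 1 library per group no spread between mice could be measured.

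G-CSF is the growth factor that drives the production of neutrophils in bone marrow and their release and survival, and it acts through the receptor encoded by Csf3r on neutrophils and their precursors. Its usual sources are stromal, endothelial and epithelial cells and macrophages that have met cytokines or microbial products. Its gene is a target of the NF-κB and C/EBP transcription factors. Neutrophils in inflamed tissue can themselves make cytokines and chemokines, among them the CXC chemokines Cxcl1, Cxcl2 and Cxcl3, which attract further neutrophils through Cxcr2.

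Since Csf3, the chemokines and Sod2 belong to genes known to be driven by NF-κB, the RefSeq promoter sequences of genes that were higher in the members were searched for the NF-κB (κB) consensus on both strands, from 250 bases before to 50 bases after each gene start in GRCm38.p6. The consensus was found for 1388 of 27025 genes (5.14%). Among the 59 genes that were at least 2-fold higher in the core members described below, 49 had a window and 8 held the consensus (16.3%), namely Cxcl3, Alpk1, Smpdl3b, Klhdc10, Tnip3, Ramp3, Btg3 and Sod2. Over all cells 4 of these 8 were not 2-fold higher, namely Klhdc10 (log2 ratio 0.90), Alpk1 (0.61), Smpdl3b (0.21) and Ramp3 (-0.15). Of the 40 Ramp3 UMIs in the core members, 1 cell held 32. Among the genes at least 2-fold lower, 60 of 985 held it (6.09%). Of the 18 listed NF-κB targets and feedback genes with a window, 10 held it (55.6%). These had been listed as known targets, so their share says nothing about the members. The 59 genes had been picked from these same data, and whether NF-κB acted in the members was not tested. A match is a run of letters and not a bound site, and no match says only that these letters are not in this window. Of the 10 genes by which these cells had been described, 7 had a window and 1, Cxcl3, held the consensus (14.3%). Serpinb2, Ccl3, Il1rn, Irg1, Il1f9 and Olr1 had no match, nor had Traf1 of the NF-κB list. Only windows with a match were chosen for display, and Cxcl1 and Cxcl2 were not 2-fold higher in the core members. The 120 bases before the start are shown for the 3 chemokine genes on chromosome 5 and for Sod2 and Tnip3, the NF-κB list genes with the largest ratios, with the matched letters in capitals. They lie on the plus strand at chr5:90891125-90891244 (Cxcl1), chr5:90903779-90903898 (Cxcl2), chr5:90785981-90786100 (Cxcl3), chr17:13007719-13007838 (Sod2) and chr6:65590278-65590397 (Tnip3).
Cxcl1: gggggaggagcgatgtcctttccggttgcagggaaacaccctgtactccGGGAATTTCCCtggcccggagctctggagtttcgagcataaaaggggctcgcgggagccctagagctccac
Cxcl2: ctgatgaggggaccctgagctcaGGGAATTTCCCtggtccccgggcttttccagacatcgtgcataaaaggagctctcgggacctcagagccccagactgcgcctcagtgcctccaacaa
Cxcl3: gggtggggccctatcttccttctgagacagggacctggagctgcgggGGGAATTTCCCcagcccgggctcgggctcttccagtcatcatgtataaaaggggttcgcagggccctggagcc
Sod2: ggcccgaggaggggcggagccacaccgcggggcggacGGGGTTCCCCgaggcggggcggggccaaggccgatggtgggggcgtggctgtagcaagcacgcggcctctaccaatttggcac
Tnip3: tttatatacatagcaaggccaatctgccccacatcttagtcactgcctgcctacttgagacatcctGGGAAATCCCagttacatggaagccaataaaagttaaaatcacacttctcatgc
In the 3 chemokine genes the capitals cover 2 overlapping matches. The matches began 71, 97 and 73 bases before the RefSeq start in Cxcl1, Cxcl2 and Cxcl3, 83 bases before it in Sod2 and 54 bases before it in Tnip3. In GENCODE M21, Sod2 starts at chr17:13006846 and Tnip3 at chr6:65525313. The windows of these genes thus lie inside the GENCODE genes, before another start. No promoter entry was used for Csf3.

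To see where the members were found, they were set against all cells of the neutrophil gate, which is the same rule without its Csf3 criterion. Vehicle held 6 members among 4315 gate cells, Vehicle-OVA 917 among 8096, Ribavirin 43 among 4531 and Ribavirin-OVA 5 among 1702. The share was 11.3% (10.6 to 12.0) in Vehicle-OVA and 0.139% (0.0511 to 0.302) in Vehicle. Ribavirin stood at 0.949% (0.688 to 1.28), and Ribavirin-OVA at 0.294% (0.0955 to 0.684). Intervals here and below are exact 95% intervals of shares, counts or ratios and cover counting error only. The share in Vehicle-OVA thus lay above those of the other 3 libraries beyond counting error, and it was larger with OVA under vehicle. Under ribavirin the share was smaller with OVA, but this rested on 43 and 5 members. After thinning to 1000 UMIs the shares were 0.234% in Ribavirin against 0.196%, without the lineage exclusion 0.884% against 0.693%, and in core cells the intervals overlapped (0.673 to 1.38 and 0.0558 to 0.788). As a background, lymphocyte-marked cells (at least 2 UMIs of Cd3e or Cd79a and none of the neutrophil receptor genes), which should lack Csf3, were counted in the same way. None of 613 such cells of Vehicle-OVA held 2 or more Csf3 UMIs, which allows a share of up to 0.489%. A single Csf3 UMI was found in 5.22% of them and in 6.66% of the gate cells, at median depths of 4777 and 2947 UMIs, so that a single UMI is near the background of this library. Lymphocyte-marked cells with 2 or more Csf3 UMIs numbered 2 of 3719 in Vehicle (0.0538%), 2 of 2302 in Ribavirin (0.0869%) and 1 of 1001 in Ribavirin-OVA (0.0999%). The intervals of the gate shares in Vehicle and Ribavirin-OVA reached down to these values, so that the few members there are near the background.

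**Figure D1:**
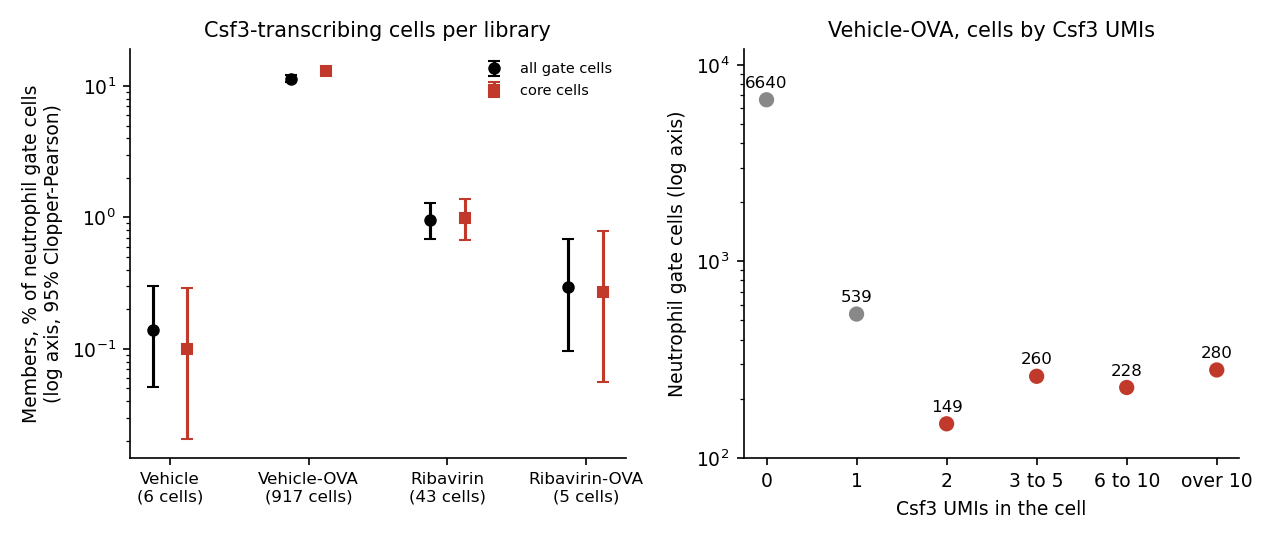
Share of neutrophil gate cells that met the Csf3 rule (percent, y axis) in each library (x axis), for all cells and for core cells, with exact 95% intervals. The Vehicle-OVA library stands at 11.3%, and the other 3 libraries stand below 1%.

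The libraries held 10311 to 28277 barcodes and 91742940 to 171873110 UMIs. Any pair of libraries shared 57 to 174 barcodes (0.553 to 0.909% of the smaller library), and 13 members of Vehicle-OVA had a barcode that also occurred elsewhere. Scrublet marked 0.567 to 5.32% of cells as doublets and 3 of the 917 members, and these were kept. In Vehicle-OVA 1516 cells held at least 2 Csf3 UMIs. Of these, 58 had no UMI of the receptor genes, 67 had a Siglecf UMI and 474 had a UMI of an excluded lineage gene, mostly (428 cells) of the complement genes C1qa, C1qb and C1qc alone. In 321 of the 474 cells it was a single UMI, and the median share of S100a8 and S100a9, abundant transcripts of neutrophils, was 3.00% of UMIs in the 474 cells against 4.23% in the members. The 67 cells with a Siglecf UMI had a median share of 4.085%, near that of the members, and are not taken for eosinophils here.

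To check the label, neutrophil markers were examined in the members. All 16 listed neutrophil markers were detected and summed to 80640 CPM (counts per 1000000 UMIs of the set) in the members of Vehicle-OVA, against 3276 CPM in the lymphocyte-marked cells. All 16 were detected in the lymphocyte-marked cells too, so that only the level tells the sets apart. In 67 of the 917 members, however, S100a8 and S100a9 together made up less than 0.5% of UMIs, and 17 members held at least 2 UMIs of the epithelial and stromal genes Epcam, Krt5, Krt8, Krt18, Krt19, Col1a1, Col3a1 and Dcn. The 73 members with either feature were set aside, which left 844 core members. The same limits, chosen after the values had been seen, set aside 906 of the 5841 Csf3-free neutrophils (gate sum of at least 2, no Csf3 UMI, the same exclusions) and left 4935. With core cells alone the members made up 12.9% of the gate in Vehicle-OVA, against 0.0993% in Vehicle, 0.983% in Ribavirin and 0.270% in Ribavirin-OVA. Markers of other cell types summed to 331 CPM (macrophage, 10 genes), 116 CPM (monocyte, 6 genes) and 134 CPM (epithelial, stromal and endothelial, 10 genes) in the core members, against 454, 190 and 89.8 CPM in the core Csf3-free neutrophils, and their part in the results was not tested. Most of the 134 CPM was the endothelial list gene Pecam1. It had 97.1 to 142 CPM in core members grouped by their Csf3 UMIs, where each other gene of that list had 5.83 CPM or less. The core limit itself capped the epithelial and stromal genes. Markers of dendritic cells, T cells, NK cells, and mast cells and basophils each summed to 45.9 CPM or less in the core members, where 1 of 8, 0 of 4, 3 of 6 and 4 of 8 of these genes were at 0, and 4 of the 9 eosinophil genes were at 0. B and plasma cell markers summed to 678 CPM in the core members and 624 CPM in the core Csf3-free neutrophils. The 16 neutrophil markers summed to 94080 CPM in the core members and to 105100 CPM in the core Csf3-free neutrophils.

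These few cells decided the top of the list when all cells were summed. Of 9910 genes with at least 50 UMIs over both sets, 512 (5.17%) were at least 2-fold higher and 1493 (15.1%) at least 2-fold lower in the 917 members than in the 5841 Csf3-free neutrophils. The 10 genes with the largest ratios were the matrix metalloproteinase gene Mmp3, the platelet chemokine gene Ppbp, the keratin genes Krt6a, Krt15, Krt6b, Krt19, Krt17 and Krt14, the cornified envelope gene Sprr1a and the retinal dehydrogenase gene Aldh1a3. At most 17 members held a UMI of any of these genes, and 10 cells held at least 99.3% of the UMIs of each. One cell carried 1886 of the 1888 Mmp3 UMIs, and another high value was 2263 of the 2456 Ppbp UMIs in a single cell. In the 844 core members Mmp3 had 0 UMIs and Ppbp had 6. Cxcl5, another neutrophil-attracting chemokine gene, went from a log2 ratio of 5.01 to -1.16, and Ltf, the lactoferrin gene of specific granules, from 2.41 to -0.87. The genes with the smallest ratios over all cells were Mcpt8, Ccr9, Stoml3, Siglech, Il17a, Gpx6, Itgae, Ccl24, Fcrla and Bpifb6. For each of these but the basophil protease gene Mcpt8, most UMIs of the Csf3-free neutrophils lay in cells that were set aside. Siglech, a gene of plasmacytoid dendritic cells, had 1060 UMIs with these cells and 109 without them, and Ccr9, a gut-homing receptor gene, had 948 and 95. When the core comparison cells were also limited to the depth range of the members, Mcpt8 (-3.91 in core cells), Siglech (-0.74) and Ccr9 (-0.76) stood at 0.033, 0.55 and 0.44.

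**Figure D2:**
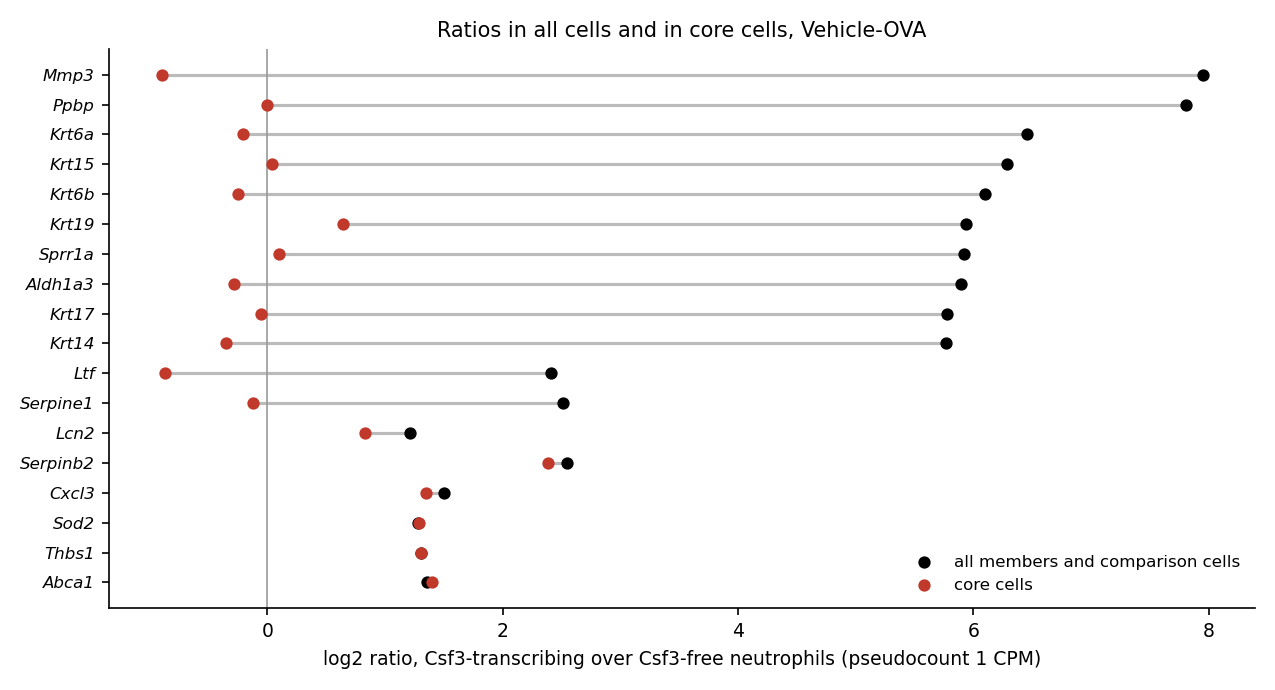
Log2 ratio of Csf3-transcribing over Csf3-free neutrophils of Vehicle-OVA (pseudocount of 1 CPM) for the 10 genes with the largest ratios and for 8 other genes, in all cells (black) and in core cells (red). Mmp3 goes from 7.95 to -0.90 and Ltf from 2.41 to -0.87, while Serpinb2 (2.55 and 2.39) and Sod2 (1.28 and 1.29) stay above 1.

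In the core cells 7756 genes had at least 50 UMIs, of which 59 (0.761%) were at least 2-fold higher and 1209 (15.6%) at least 2-fold lower in the members. Single cells still carried some of the 59. In 1 core member each lay 43 of the 48 Muc3 UMIs, 33 of the 36 Cd209a UMIs and 32 of the 40 Ramp3 UMIs. The median gene had a log2 ratio of -0.49 (-0.48 in all cells), and relative to the median gene 324 genes (4.18%) were higher and 207 (2.67%) lower. With the comparison cells alone limited to the central range of the members' depth (called matched in depth here), the median moved to -0.37. Centring on the median gene over all cells gave 865 genes (8.73%) higher and 349 (3.52%) lower. The members held fewer kinds of transcripts. After each cell was thinned to 1000 UMIs, the median number of genes was 410 (quartiles 382 and 443) in 842 core members and 461 (419 and 508) in 4781 core Csf3-free neutrophils, with 2 and 154 shallower cells left out. The 20 most abundant genes of each set took 33.2% and 29.3% of UMIs, and the median depth was 3615 and 2935 UMIs. Ribosomal protein genes had lower ratios than 0 in 83 of 90 cases, with a median of -0.23. That median lay above the median gene at -0.49, and the share of all genes below 0 was not counted. The ratios below are log2 ratios of summed CPM with a pseudocount of 1 CPM in core cells of Vehicle-OVA, and they are to be read beside the median of -0.49. Counts over gene lists are likewise to be read beside the 0.761% of all genes that were 2-fold higher and the 15.6% that were 2-fold lower.

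Csf3 itself, which chose the members, ranged from 2 to 108 UMIs per cell with a median of 6 (quartiles 3 and 12), and its level was 2210 CPM (2161 to 2259) in the core members. Of the other 9 marker genes by which these cells had been described, each had a log2 ratio above 0, and 2 of the 9 were at least 2-fold higher. These markers had been chosen with earlier results of these data known, so that the counts are a description and no separate result. Serpinb2, which encodes the plasminogen activator inhibitor PAI-2, had the largest ratio, with 576 CPM (552 to 602) against 109 (104 to 115), a log2 ratio of 2.39. Cxcl3 followed, with 7884 CPM (7793 to 7976) against 3096 (3069 to 3123) and a log2 ratio of 1.35. Ccl3, the macrophage inflammatory protein 1-alpha gene, stood just under 2-fold at 10690 against 5418 CPM (0.98). The interleukin-1 receptor antagonist gene Il1rn had a log2 ratio of 0.76, the inducible nitric oxide synthase gene Nos2 0.58, the nicotinic acid receptor gene Hcar2 0.43 and Irg1, whose enzyme makes itaconate, 0.37. Il1f9, the gene of IL-36γ, stood at 0.23 and Olr1, a receptor gene for oxidised low-density lipoprotein, at 0.03, so that these markers were present in both sets at like levels. After thinning, a Serpinb2 UMI was seen in 18.5% of members and 4.56% of Csf3-free neutrophils, and a Cxcl3 UMI in 78.0% and 44.8%. The lymphocyte-marked cells gave 0.328% for Serpinb2 and 7.21% for Cxcl3 after the same thinning, at a median depth of 4777 UMIs before it.

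The 9 markers were found together more often in single members, which describes markers chosen with earlier results of these data known and is no separate support. Of the 842 thinned core members, 91.9% held at least 5 of the 9, against 60.8% of the 4781 Csf3-free neutrophils, with medians of 6 and 5. Only 2 members held 2 or fewer. Serpinb2 and Nos2 each marked a minority, with 686 and 711 of the 842 thinned members at 0 UMIs, whereas Cxcl2 was found in all 842 with a median of 35 UMIs. Cxcl3 was seen in 79.5% of the members with a Serpinb2 UMI and in 77.7% of those without one, and Nos2 in 8.97% and 17.1%. All of these are counts in 1 library.

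To see how the profile varied with the amount of Csf3, the core gate cells of Vehicle-OVA were divided by their Csf3 UMIs into 0 (5273 cells), 1 (417), 2 (132), 3 to 5 (239), 6 to 10 (214) and more than 10 (259). The last group held 61.3% of the Csf3 UMIs. Cxcl3 was higher at every step, with 3084, 4883, 5208, 7827, 7896 and 9055 CPM, although the groups of 3 to 5 and 6 to 10 UMIs did not differ beyond counting error. Ccl3 ran from 5508 over 7270, 8435, 10100 and 10650 to 12130 CPM. Thbs1, the gene of thrombospondin-1, ran from 1450 over 2340, 2453, 3200 and 3376 to 4414 CPM. Sod2 ran from 559 to 1482 CPM and the cholesterol exporter gene Abca1 from 353 to 1040 CPM. The steps of Ccl3 exceeded counting error, whereas the intervals of neighbouring groups overlapped between 1 and 2 UMIs and between 3 to 5 and 6 to 10 UMIs for Thbs1, Sod2 and Abca1, and for the latter pair of genes also between 6 to 10 and more than 10 UMIs. Olr1 did not follow, with 552 CPM at 0 UMIs, 676 at 6 to 10 and 411 above 10. Just outside and just inside the threshold, cells with 1 and 2 Csf3 UMIs had 4883 and 5208 CPM of Cxcl3, 317 and 260 CPM of Serpinb2, 6998 and 8197 CPM of Il1rn and 513 and 314 CPM of Mmp9. Mmp9 and Mmp8, the genes of the neutrophil gelatinase and collagenase, ran the other way, from 796 to 299 CPM and from 617 to 284 CPM between 0 and more than 10 UMIs, with most of the difference between 0 and 2 UMIs. The median depth moved with the groups, from 2863 UMIs per cell at 0 Csf3 UMIs over 3111 at 1 to 4084 above 10, and its part in these steps was not tested.

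**Figure D3:**
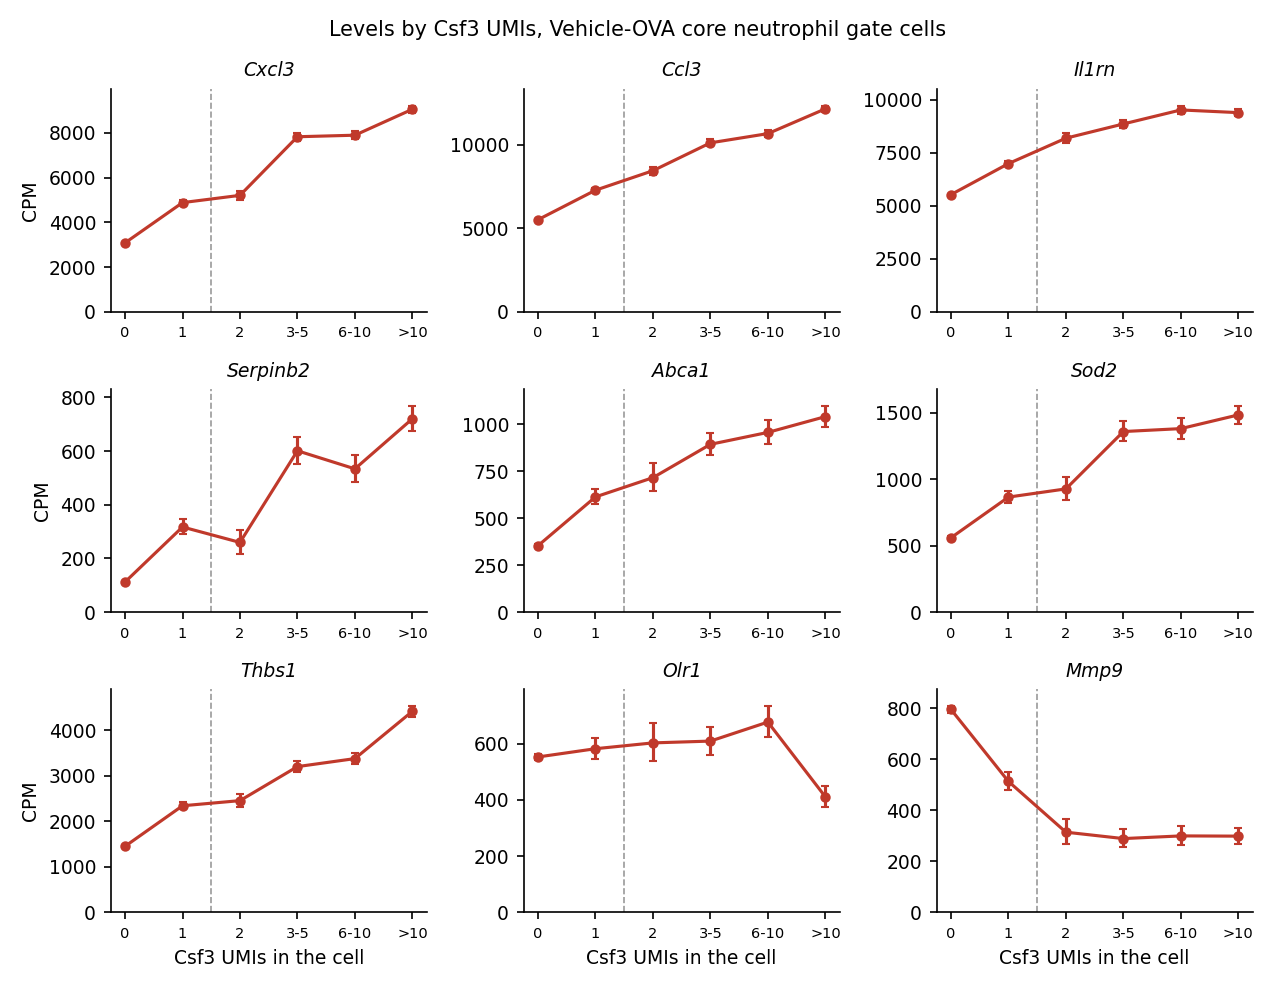
Levels of 9 genes (CPM, y axes from 0) in core gate cells of Vehicle-OVA by the number of Csf3 UMIs in the cell (x axis), with exact Poisson 95% intervals and a dashed line at the threshold of the rule. Cxcl3 goes from 3084 to 9055 CPM and Ccl3 from 5508 to 12130 CPM, while Mmp9 goes from 796 to 299 CPM.

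Among genes of the NF-κB pathway, 20 of the 21 measured had a log2 ratio above 0 and all 21 lay above the median gene. The list median was 0.60 against -0.49 for all genes. The share of all genes above 0 was not counted. Lying above the median gene was not particular to this list. All 19 hypoxia and glycolysis genes and all 11 antigen presentation genes did so too, with 7 and 5 of them above 0. Of the 21 NF-κB genes, 3 were at least 2-fold higher and none was 2-fold lower, beside 0.761% and 15.6% of all genes. Tnip3, whose product restrains NF-κB through the deubiquitinase A20, had 80.0 CPM (71.1 to 89.8) against 16.0 (14.1 to 18.0), a log2 ratio of 2.26. Few cells carried it, with a UMI in 3.09% of thinned members against 0.837%, and over all 917 members 10 cells held 56.1% of its UMIs. Sod2, the mitochondrial superoxide dismutase, had 1342 against 550 CPM (1.29), and Traf1, an adaptor of tumour necrosis factor receptors, 869 against 395 CPM (1.14). The subunit genes Nfkb1 (1651 against 830 CPM) and Nfkb2 both stood at 0.99, and Tnfaip3, the A20 gene, at 0.84. The exception was Tnfaip2 at -0.38. Relative to the median gene, 14 of the 21 were at least 2-fold higher, beside 4.18% of all genes.

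Among regulators and upstream receptors of Csf3, 0 of 20 measured genes were 2-fold higher and 1 was 2-fold lower, with a median of 0.03. The shares of all genes were 0.761% higher and 15.6% lower. The formyl peptide receptor gene Fpr1 had 507 against 301 CPM (0.75), Cd14, the lipopolysaccharide co-receptor gene, 8629 against 5575 CPM (0.63), and Cebpb 6759 against 5894 CPM (0.20). Clec4n, the gene of the fungal receptor Dectin-2, was the 1 lower gene at -1.02 (-0.97 with cells matched in depth), and the interleukin-17 receptor gene Il17ra stood at -0.94. Cebpd was not analysed here. Of the other colony-stimulating factors, Csf1, the macrophage factor gene, was lower, with 242 CPM (226 to 258) against 593 (581 to 605), a log2 ratio of -1.29. The receptor genes Csf2ra, Csf2rb and Csf2rb2 stood between -0.26 and 0.06.

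Neutrophil-attracting chemokines were not all alike. Cxcl2 had 38840 CPM (38640 to 39050) against 25960 (25880 to 26040), a log2 ratio of 0.58, and Cxcl1 had 217 CPM (202 to 233) against 117 (112 to 122), a ratio of 0.89. Of the 6 measured genes of this list, Cxcl3 was 2-fold higher, and Cxcl5 and the receptor gene Cxcr1 were 2-fold lower, Cxcl5 on 3 UMIs in the core members. Ccl4, the neighbour of Ccl3, had 14030 against 7749 CPM (0.86). Of 13 other chemokine genes, 0 were 2-fold higher and 2 were 2-fold lower, Ccl24 (-1.37, and -0.67 with cells matched in depth) and Ccl2 (-2.09), with a list median of -0.36. For both lists the shares of all genes were 0.761% higher and 15.6% lower, and the 2 of 13 lay near the latter.

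Of 12 genes of the IL-1 family and inflammasome, 2 were 2-fold higher and none lower, beside 0.761% and 15.6% of all genes. The list median was 0.18. Il1a had 2277 CPM (2228 to 2327) against 1132 (1115 to 1148), a log2 ratio of 1.01 that went just under 2-fold with cells matched in depth (0.88). Il1f6, the gene of IL-36α, had 15.3 against 4.32 CPM (1.61). Il1b, the gene of the pyrogenic cytokine IL-1β, had 16800 against 17660 CPM (-0.07), and the inflammasome sensor gene Nlrp3 stood at 0.79. Among 12 other cytokine genes, 2 were higher and 1 lower, beside the same shares of all genes. Il10, the gene of an inhibitory cytokine, had 76.4 CPM (67.7 to 86.0) against 25.7 (23.3 to 28.3), a log2 ratio of 1.54, and a UMI in 5.58% of thinned members against 1.97%. Over all members 10 cells held 53.2% of its UMIs. With all cells the Il10 ratio was 1.32, and 0.49 without exclusions in the comparison cells. Areg, which encodes the growth factor amphiregulin, had 39.5 against 17.5 CPM (1.13), and Il17a was lower on 4 UMIs in the core members. Tnf stood at 299 against 297 CPM (0.01).

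Of 12 genes of the protease and plasminogen system, 3 were 2-fold higher and none lower, with a median of 0.31, beside 0.761% and 15.6% of all genes. Besides Serpinb2 these were Thbs1, with 3554 CPM (3492 to 3616) against 1435 (1416 to 1453), a log2 ratio of 1.31, and the metalloproteinase inhibitor gene Timp1, with 19.7 against 8.20 CPM (1.17). Procr, the endothelial protein C receptor gene, and Saa3, an acute-phase serum amyloid gene, were among the 30 highest genes of the core cells. Procr had 41.7 against 9.50 CPM (2.02) and Saa3 1082 against 340 CPM (1.67). A Procr UMI was seen in 2.97% of thinned members against 0.753%, and over all members 10 cells held 67.5% of its UMIs. For Saa3 the shares were 12.7% and 7.24%, and 10 cells held 41.3%. Abca1 had 933 against 354 CPM (1.40). These 3 genes were named after their values were seen.

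Granule genes had a list median of -0.79, with 0 of 10 at least 2-fold higher and 3 of 10 at least 2-fold lower, beside 15.6% of all genes. Relative to the median gene their median was -0.30, and 1 was 2-fold higher and 0 were 2-fold lower. Mmp9 had 299 CPM (281 to 317) against 817 (803 to 831), a log2 ratio of -1.45. Mmp8 had 250 against 632 CPM (-1.34), and both stayed below -1.3 when the core comparison cells were matched in depth (-1.47 and -1.37). Prtn3, the proteinase 3 gene of primary granules, stood at -1.01 and Ltf at -0.87, but with cells matched in depth they stood at 0.63 and 1.10. The exception was Lcn2, the gene of the iron-sequestering lipocalin-2, with 4439 against 2493 CPM (0.83, and 1.21 over all cells). The adhesion and migration list had a median of -0.63, with 1 of 13 higher and 3 of 13 lower, beside 0.761% and 15.6% of all genes. Relative to the median gene its median was -0.14, with 2 genes higher and 0 lower. Its lower genes were Selplg, which encodes the selectin ligand PSGL-1 (-1.25), Cxcr1 (-1.24) and the integrin gene Itga4 (-1.11). Its higher gene was Ccr7, with 22.2 against 9.19 CPM, although its UMIs were seen in only 0.238% of thinned members against 0.272%. Its log2 ratio was 1.19, and 2.92 with cells matched in depth.

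Lipid mediator genes differed among themselves. Of 11 measured, 1 was 2-fold higher and 4 were 2-fold lower, with a median of -0.68, beside 0.761% and 15.6% of all genes. Relative to the median gene 1 was higher and 2 were lower, beside 4.18% and 2.67%. The prostaglandin E synthase gene Ptges was higher on a low level, 17.5 against 6.42 CPM (1.32), and the cyclooxygenase 2 gene Ptgs2 had 5864 against 4156 CPM (0.50). Over all members 10 cells held 74.2% of the Ptges UMIs, and a UMI was seen in 0.831% of thinned members against 0.523%. The 4 lower genes were those of the leukotriene enzymes Alox5 (-1.69), Lta4h (-1.19) and Ltc4s (-2.09) and the leukotriene B4 receptor gene Ltb4r1 (-1.25), while Alox5ap, whose product assists 5-lipoxygenase, stood at -0.55. With cells matched in depth Lta4h stood at -0.13 and the other 3 stayed below -1.

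In the remaining lists few genes passed 2-fold, beside 0.761% of all genes that were higher and 15.6% that were lower. Immediate early and dissociation stress genes had a median of -0.53, near that of all genes, with 0 of 16 above 0, Fos at -0.96 and Egr1 at -0.87, and the heat shock gene Hspa1b was the 1 gene 2-fold lower (-1.29, but -0.26 with cells matched in depth). Of 18 genes of activated metabolism and redox and of 19 hypoxia and glycolysis genes none passed 2-fold, with medians of 0.00 and -0.06, and the lipid droplet gene Hilpda had the largest ratio of the latter at 0.92. Among 15 survival and death genes, the pro-apoptotic Bid was lower (-1.58) and the 3 Bcl2a1 genes Bcl2a1a, Bcl2a1b and Bcl2a1d stood between 0.70 and 0.84. These copies share sequence, and how their reads were divided is uncertain. Of 19 interferon-stimulated genes 1 was lower (Ifit3, -1.07), with a median of -0.24. Of the 8 measured stress granule and efferocytosis genes of the study none passed 2-fold, and G3bp1, the stress granule scaffold gene, had 40.6 CPM (34.3 to 47.7) against 40.2 (37.1 to 43.4). Of 11 antigen presentation genes none passed 2-fold in core cells, with a median of -0.02. Over all cells, where 15.1% of genes were lower, 5 of 12 of them were. Macrophage markers moved with them, with 6 of 10 genes 2-fold lower over all cells and 1 of 8 in core cells, and their part in this difference was not tested.

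**Figure D4:**
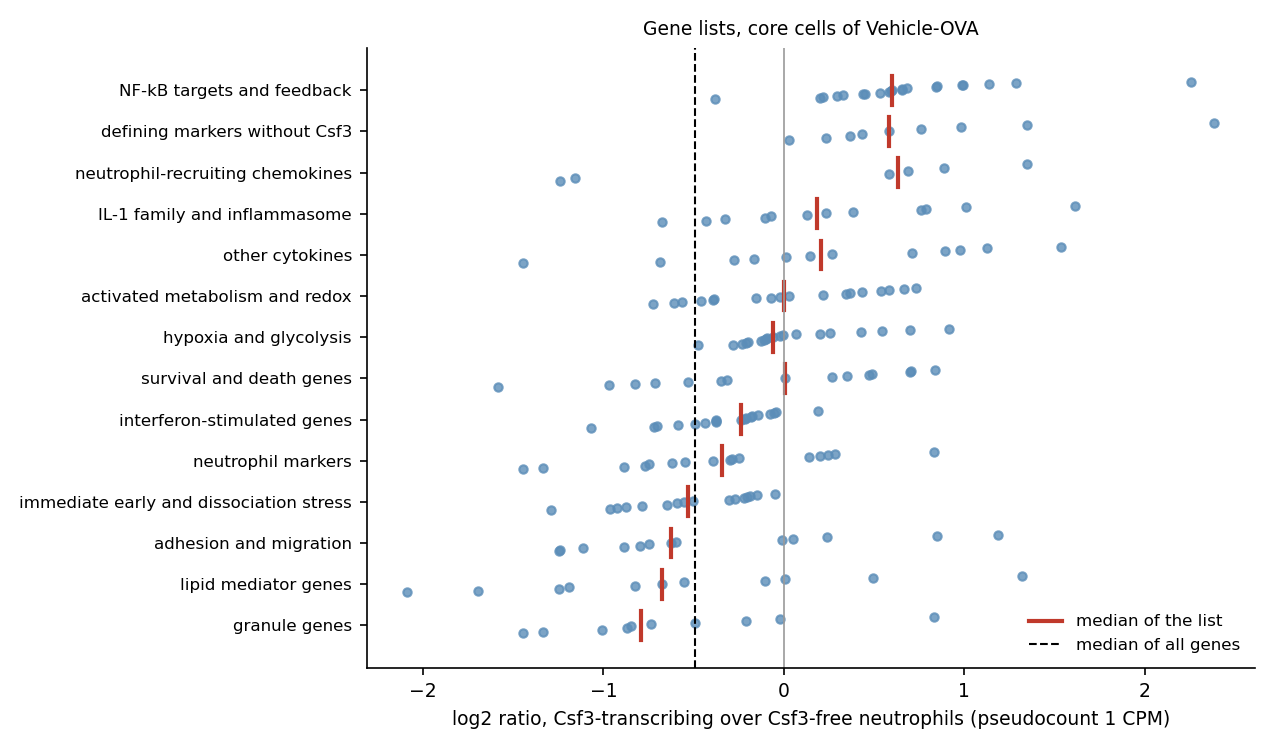
Log2 ratios of Csf3-transcribing over Csf3-free neutrophils in core cells of Vehicle-OVA (x axis) for each gene of 14 lists with at least 50 UMIs, with list medians and the median of all genes (-0.49). The NF-κB list lies furthest to the right with a median of 0.60 apart from the recruiting chemokines (0.63), and the granule list lies furthest to the left (-0.79).

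To see how the 9 markers stood without Csf3, their levels were compared in core Csf3-free neutrophils of the 4 libraries (2923 in Vehicle, 4935 in Vehicle-OVA, 3142 in Ribavirin, 1067 in Ribavirin-OVA). All 9 were highest in Vehicle-OVA. Since they had been chosen with earlier results of these data known, this is a description only, and the share of all genes highest there was not counted. Cxcl3 had 323 CPM in Vehicle, 3096 in Vehicle-OVA, 1579 in Ribavirin and 456 in Ribavirin-OVA. Serpinb2 had 2.00, 109, 5.54 and 5.04 CPM in that order, and Nos2 had 5.47, 172, 4.25 and 57.1 CPM. Serpinb2 was thus 54.7-fold (33.1 to 97.9) and Nos2 31.5-fold (23.2 to 44.0) higher in Vehicle-OVA than in Vehicle. The second-highest library differed between markers. It was Ribavirin for Cxcl3, Irg1 (1746, 6965, 2970 and 2045 CPM) and Hcar2 (734, 2250, 1072 and 958 CPM). It was Ribavirin-OVA for Ccl3 (893, 5418, 1417 and 1981 CPM), Il1rn (761, 5381, 1344 and 2005 CPM), Olr1 (53.4, 545, 69.0 and 254 CPM), Il1f9 (397, 2029, 625 and 1061 CPM) and Nos2. For Serpinb2, Ribavirin and Ribavirin-OVA did not differ beyond counting error (ratio 0.910, 0.503 to 1.57). Lymphocyte-marked cells of Vehicle-OVA had 73.5 CPM of Cxcl3, 3.06 CPM of Serpinb2 and 2.79 CPM of Nos2.

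**Figure D5:**
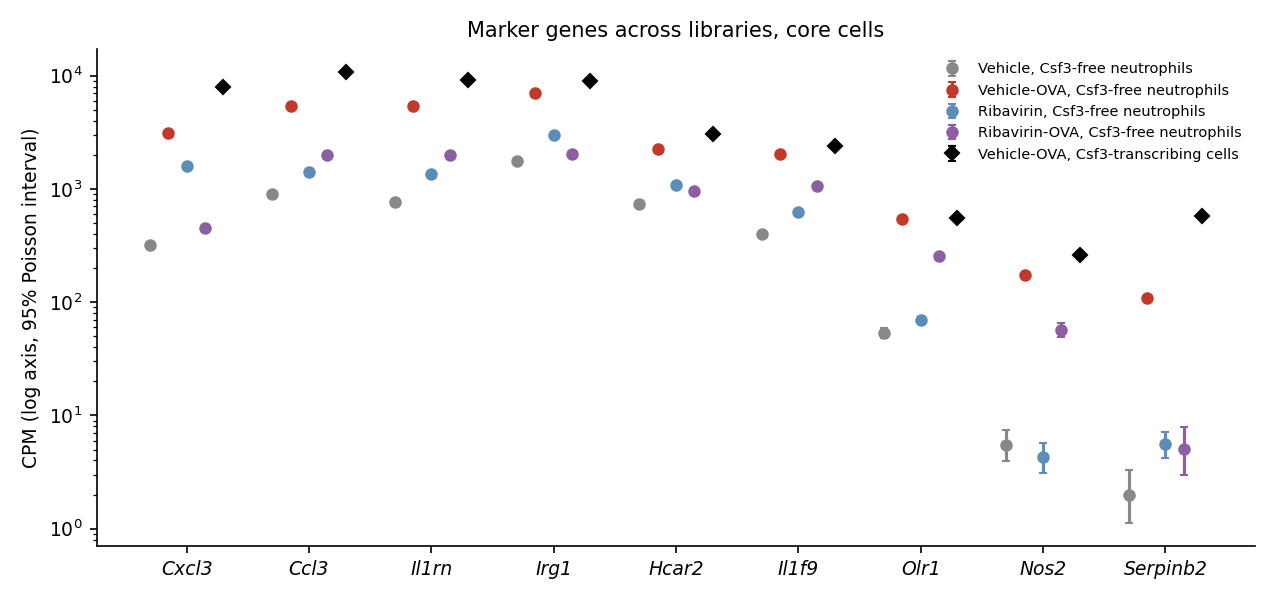
Levels of the marker genes (CPM, log axis) in core Csf3-free neutrophils of each library and in core members of Vehicle-OVA (diamonds), with exact Poisson 95% intervals. In the Csf3-free neutrophils every marker is highest in Vehicle-OVA, and Serpinb2 and Nos2 differ most between Vehicle-OVA and Vehicle.

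The 32 core members of Ribavirin gave another, small set. Their Cxcl3 level was 6350 CPM (5868 to 6861), their Ccl3 level 9015 (8439 to 9620), their Irg1 level 8510 (7950 to 9098) and their Csf3 level 1397 (1176 to 1647). The Csf3-free neutrophils of the same library had 1579 CPM of Cxcl3, 1417 CPM of Ccl3 and 2970 CPM of Irg1, so that the members lay well above them and nearer to the members of Vehicle-OVA (7884, 10690 and 8988 CPM). Serpinb2 had 1 UMI in these 32 cells (9.91 CPM, 0.251 to 55.2) and Nos2 had 0 UMIs, which allows up to 29.7 CPM (3 UMIs, the limit used here for counts of 0), where the members of Vehicle-OVA had 576 and 258 CPM. The 3 core members each of Vehicle and Ribavirin-OVA were too few for levels.

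Members were not the main holders of Csf3 in every library. Of all Csf3 UMIs in passing cells, they held 55.9% (55.1 to 56.7) in Vehicle-OVA and 17.5% (12.9 to 22.9) in Vehicle. The library Ribavirin stood at 18.0% (15.7 to 20.5), and Ribavirin-OVA at 6.71% (4.30 to 9.89). The totals were 15323 UMIs in Vehicle-OVA (160 CPM of all passing cells), 240 in Vehicle (1.45), 1044 in Ribavirin (6.42) and 343 in Ribavirin-OVA (4.05). Cells with at least 10 UMIs of epithelial genes held 2.62% of the Csf3 UMIs in Vehicle-OVA, 63.3% in Vehicle, 50.3% in Ribavirin and 67.3% in Ribavirin-OVA. The interval in Ribavirin ran from 47.2 to 53.4%. Barcodes with a C1qa, C1qb or C1qc UMI, leaving out those with both Siglecf and neutrophil receptor UMIs, can also be among the epithelial ones and held 30.6% in Vehicle-OVA, 54.6% in Vehicle, 52.4% in Ribavirin and 75.2% in Ribavirin-OVA. The members thus held most Csf3 transcripts in Vehicle-OVA, and fewer than either of these kinds of barcode in the other 3 libraries.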

How the data were processed

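CD45+ cells of nasal mucosa had been enriched by magnetic beads per the labels (the series text names fluorescence-activated sorting) and run on the 10x Chromium system. The authors deposited matrices of UMI counts per gene and cell, not normalised, made with Cell Ranger 5.0.0 on mm10 per the submitters' processing notes. Cells with at least 500 UMIs, at least 200 genes and under 10% mitochondrial UMIs were kept. The members, gene lists and comparisons were chosen with earlier results of these data known. UMIs were summed per set of cells and given as CPM with exact Poisson intervals, shares with Clopper-Pearson intervals and ratios with conditional binomial intervals, all at 95%. Differences between sets used genes with at least 50 UMIs and a pseudocount of 1 CPM, and past 2-fold counted as higher or lower. The rule genes and 56 symbols shared by several genes were left out. There was no test, since each group was 1 library. Shares of cells with a UMI were taken after thinning to 1000 UMIs. Genes named were the markers, the 10 genes at either end of the ratio over all cells and 4 of each of 29 lists by absolute ratio. The genes named from core cells, the promoters shown and the core limit were chosen after values were seen. Doublets were marked with Scrublet in scanpy 1.11.5 and kept. Scripts used Python 3.11.15, numpy 2.4.6 and scipy 1.17.1, and were tested on simulated data. Gene positions came from GENCODE M21 and promoters from RefSeq (GRCm38.p6). Cebpd, Itgam, Trac, Trbc1 and Trbc2 were not analysed here. Alternatives covered the quality limits, gate, Csf3 threshold, doublets, depth, pseudocount, filter, scaling and comparison cells.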

Additional observations from a re-analysis of the deposited data

Results flagged for a closer look

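The share of members among neutrophil gate cells went in opposite directions with OVA. It was 0.139% in Vehicle and 11.3% in Vehicle-OVA, and 0.949% in Ribavirin and 0.294% in Ribavirin-OVA. The ribavirin pair moved to 0.234% and 0.196% after thinning to 1000 UMIs and to 0.884% and 0.693% without the lineage exclusion. The shares in Vehicle and Ribavirin-OVA were near those of lymphocyte-marked cells with 2 or more Csf3 UMIs (0.0538% and 0.0999%). In core Csf3-free neutrophils 4 of the 9 markers also went in opposite directions with OVA. Cxcl3 had 323 CPM in Vehicle and 3096 in Vehicle-OVA, against 1579 in Ribavirin and 456 in Ribavirin-OVA. Irg1 had 1746 and 6965 CPM under vehicle, and 2970 and 2045 under ribavirin. Hcar2 had 734 and 2250 CPM under vehicle, and 1072 and 958 under ribavirin. Serpinb2 had 2.00 and 109 CPM under vehicle, and 5.54 and 5.04 under ribavirin, the latter pair within counting error. With 1 library per group the difference between the effects of OVA was not tested for any of these, and library and treatment cannot be told apart.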

How the results depend on the processing

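The members were most frequent in Vehicle-OVA under every alternative tried. A threshold of 1 Csf3 UMI gave 18.0% of gate cells in Vehicle-OVA, 0.348% in Vehicle, 1.96% in Ribavirin and 0.823% in Ribavirin-OVA. A threshold of 3 gave 9.49% in Vehicle-OVA and 0.530% in Ribavirin, and thinning to 1000 UMIs gave 6.12% and 0.234%, the latter near Ribavirin-OVA (0.196%). Core cells gave 12.9% in Vehicle-OVA, and leaving out the lineage exclusion gave 10.3% there and 0.693% in Ribavirin-OVA. The 512 higher genes became 260 with a mitochondrial limit of 5%, 212 with the mean of single-cell CPM, 237 with a pseudocount of 10 CPM, 1009 without a filter, 187 with at least 200 UMIs per gene, 865 when centred on the median gene, 59 in core cells and 79 in core cells matched in depth. The 1493 lower genes became 305 with 1 Csf3 UMI, 5717 without exclusions in the comparison cells, 517 with cells matched in depth, 2703 with the mean of single-cell CPM, 279 with the larger pseudocount, 988 with the stricter filter, 349 when centred and 797 in core cells matched in depth. The cause of these shifts was not tested. The limits that define core cells, their depth-matched form and the member shares without the lineage or Siglecf exclusion were chosen after seeing the data.

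Log2 ratios stayed above 1 under all alternatives for Serpinb2 (2.12 to 3.06) and Cxcl3 (1.14 to 2.25), and above 0 for Ccl3 (0.72 to 1.69), Il1rn (0.61 to 1.41), Nos2 (0.58 to 1.27), Hcar2 (0.24 to 1.22) and Irg1 (0.13 to 1.18), but not for Il1f9 (-0.01 to 1.05) or Olr1 (-0.15 to 0.77). In core cells the sign turned for Mmp3 (-0.90, and -0.66 matched in depth), Cxcl5 (-1.16 and -1.15), Aldh1a3 (-0.29 and -0.36), Krt14 (-0.35 and -0.24), Krt17 (-0.055 and -0.097), Krt6b (-0.24 and -0.22), Krt6a (-0.20 and -0.12), Krt18 (-0.54 and -0.53), Gpx6 (0.16 and 0.26) and Bpifb6 (0.39 and 0.32), and for Ltf without matching (-0.87). In core cells matched in depth it also turned for Ppbp (-0.084), Krt5 (-0.035), Siglech (0.55), Ccr9 (0.44), Mcpt8 (0.033) and Prtn3 (0.63). Over all cells matched in depth Prtn3 (0.47) and Lta4h (0.044) turned, and Timp1 turned without exclusions in the comparison cells (-0.77). All 9 markers were highest in Csf3-free neutrophils of Vehicle-OVA under each of the 5 alternatives. No paired analysis was possible because each group had 1 library and no test was made. Core members numbered 32 in Ribavirin and 3 each in Vehicle and Ribavirin-OVA, which limits what could be measured there.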
